A study of Macaca fascicularis with 16 samples.

Results

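Endometrium from postmenopausal cynomolgus macaques given tamoxifen, with or without low-dose estradiol, was compared with endometrium from animals given estradiol alone. The comparison set 8 tamoxifen-arm arrays against the 4 arrays titled Estradiol 1 to 4. The 8 were titled Tamoxifen 1 to 4 and Estradiol and Tamoxifen 1 to 4. Differences were taken between these 12 of the 16 arrays of the series. Arrays were assigned to the groups by title, but the comparison and the gene lists were chosen with earlier results of these data known. Genes were described from non-control probe sets with 1 platform gene symbol that cleared a filter on dim signal, each by its brightest probe set. The other 4 arrays, from placebo animals, are given beside the values as a background. They also entered the filter and the spread behind the p-values of genes, but not the difference.

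The 16 animals were female Macaca fascicularis, randomized in a parallel design to 4 arms of 4. The estradiol arm received 0.25 mg of micronized hormone with every 1800 kcal eaten. Tamoxifen, one of the selective estrogen receptor modulators, was dosed at 20 mg per 1800 kcal, and the arm titled Estradiol and Tamoxifen, called the combination here, received both. All arms were treated for 4 months. The pooled arms share tamoxifen and differ in estradiol: the combination differs from the estradiol arm by added tamoxifen, whereas the tamoxifen arm differs from it by tamoxifen in place of estradiol. The labels do not state that each array is a separate animal, which was assumed. P-values of genes set each difference against the spread between arrays within all 4 arms. Each arm held 4 arrays at 1 dose and 1 time, and ages were not given in the sources used here. RNA came from whole frozen endometrium, in which fewer cells of a type and less RNA per cell cannot be told apart.

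Estradiol acts on the uterus through nuclear estrogen receptors. It drives division of endometrial epithelium, induces the progesterone receptor, and acts on epithelium partly through growth factors made by the stroma. Tamoxifen binds the same receptors and blocks estrogen action in breast tissue, but has partial agonist activity in the endometrium, where long use is associated with polyps, cystic glands and stromal change. When both drugs are present they compete for the receptor.

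Signal was read on an Affymetrix rhesus macaque array, so cynomolgus RNA was measured with probes designed for a related species. Levels below are log2 of the deposited signal plus a pseudocount of 4.80, and a difference of 1 on this scale is a doubling. A gene was represented by its brightest tested probe set, which left 10706 genes. The deposited arrays had been scaled to a common level, with a trimmed mean of 250.0 signal units on every array and medians of 58.7 to 70.3. Pairs of arrays from the same arm had a median r of 0.966 over probe sets and pairs from different arms one of 0.956, a description only, since probe sets are not replicates. The ratio of 3' to 5' signal for 3 housekeeping transcripts, which reads RNA integrity, did not separate the pooled arms from estradiol (exact two-sided permutation tests, p = 0.602, 0.444 and 0.174; smallest possible p 0.00404). Estradiol 4 stood apart in smooth muscle genes, with a mean log2 deviation of -2.86 over the 16 tested members of that list, whereas the other arrays of its arm had 0.22 to 0.34. Tamoxifen 1 was the next lowest at -0.87. Endometrial epithelium and stroma markers were present throughout, with summed signals of 7479 to 14241 for 13 epithelial genes in the pooled arrays and 7953 to 13738 in the estradiol arrays.

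Among the genes lower in the pooled tamoxifen arms than with estradiol were 12 of 18 mitosis, 10 of 17 DNA replication and 6 of 25 extracellular matrix genes tested. Those higher were led by the neuropeptide NPY and, among genes whose arrays did not overlap, next by the mucosal chemokine CXCL17. By limma with Benjamini-Hochberg adjustment over all probe sets, at an adjusted p under 0.05, 316 of 10706 genes (2.95%) passed. Of these, 96 (0.897%) were higher and 220 (2.05%) were lower in the tamoxifen arms. The higher genes differed by a median of 0.78 on the log2 scale and 32 of them by over 2-fold, and the lower genes by a median of 0.76 with 75 over 2-fold. All 8 tamoxifen-arm arrays lay above all 4 estradiol arrays for 105 genes (0.981%), and all below for 247 (2.31%). Both conditions held for 53 higher (0.495%) and 130 lower genes (1.21%). Counted as probe sets, 761 of 31660 (2.4%) passed.

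How many genes passed depended on single arrays, most of all those of the estradiol arm. Leaving out Estradiol 1 left 42 genes, Estradiol 2 left 150 and Estradiol 4 left 158, whereas leaving out Estradiol 3 gave 627. Among the pooled arrays, the count rose to 470 without Tamoxifen 1 and was 192, 195 and 201 without Tamoxifen 2, 3 and 4. Without Estradiol and Tamoxifen 1, 2, 3 and 4, the count was 209, 170, 164 and 220. It was 238 without Estradiol 4 and Tamoxifen 1 together. Of the 87 passing genes followed individually, 27 passed in all 16 fits that each left out 1 array. The 87 were named for extreme change, small p or by a fixed choice, or were chosen after their values were seen. Their share therefore does not carry over to all passing genes. None of the 87 changed direction in any fit that tested it. Passing genes named only as members of a list, such as CCNB1 and LOX, were not followed in this way.

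The arms being pooled were not distinguished from each other by the test. For the combination minus tamoxifen, limma called 0 of 10706 genes (0%), with a lowest adjusted p of 0.99987, and 0 probe sets (0%), while 396 genes (3.7%) had an unadjusted p under 0.05. Among the 316 genes of the pooled comparison, the median size of the difference between the arms was 0.12 on the log2 scale, with a median SE of 0.18. Their pooled difference had a median size of 0.77, but they were selected for a large pooled difference, so these medians are not a like comparison. Over all 10706 genes tested, the median sizes were 0.11 between the arms and 0.16 for the pooled difference. Of these 316 genes, 21 (6.65%) had an unadjusted p under 0.05 between the arms. With 4 arrays an arm, this does not show that the arms are alike.

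**Figure D1:**
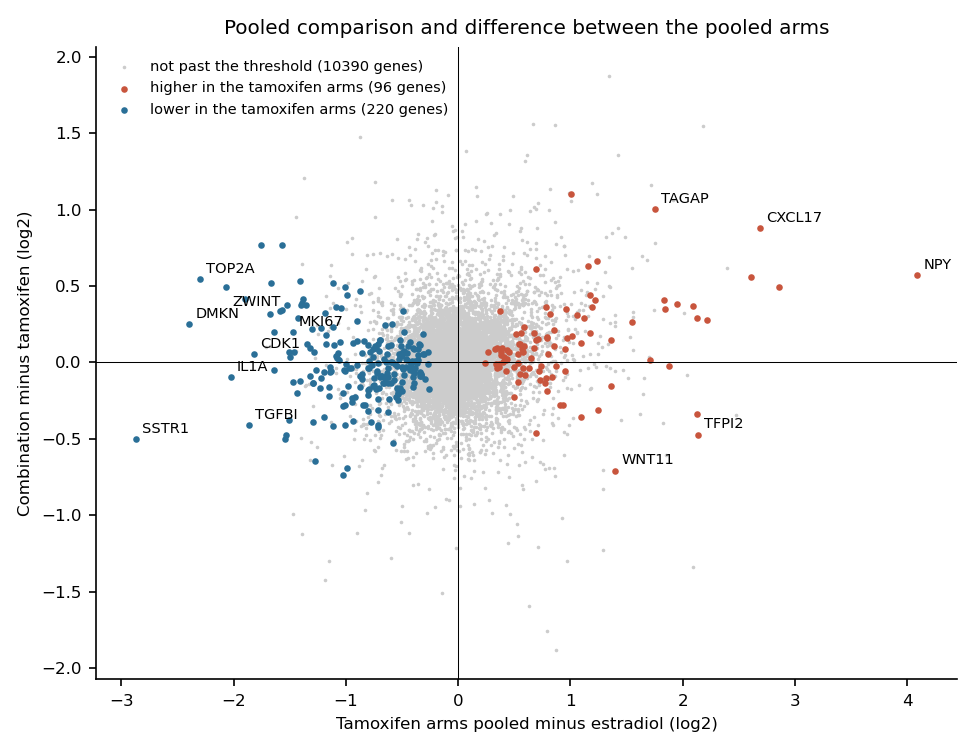
Each point is 1 of the 10706 tested genes; the horizontal axis is the pooled tamoxifen arms minus estradiol and the vertical axis the combination minus tamoxifen, both in log2 units. Red points are the 96 genes higher and blue points the 220 genes lower in the tamoxifen arms; NPY lies furthest right at 4.09 and SSTR1 furthest left among the called genes at -2.87.

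The genes with the smallest p for combination against tamoxifen were PI16, which was lower in the combination by 1.51, POPDC3 (1.10 higher), MYL12A (0.36 higher), MARK1 (0.72 higher) and FKBP1B (-0.55). None passed adjustment, with adjusted p of 0.99987 for each. Arm means lay apart for some genes that lead the pooled comparison, such as TAGAP and WNT11, though neither passed between the arms. TAGAP averaged 9.08 ± 0.11 (SD, n = 4) with tamoxifen and 10.09 ± 0.33 (SD, n = 4) with the combination, and WNT11 averaged 7.83 ± 0.52 and 7.13 ± 0.30.

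Fitted separately, the arms gave different numbers of genes against estradiol. Tamoxifen alone gave 76 genes (0.71%), of which 16 were higher (0.149%) and 60 lower (0.56%). The combination gave 142 (1.33%), of which 48 were higher (0.448%) and 94 lower (0.878%). As probe sets these were 180 (0.569%) and 385 (1.22%). These comparisons share the 4 estradiol arrays with each other and with the pooled one, and a gene that passed in 1 of them is not thereby shown to differ between the arms. Without Estradiol 1, tamoxifen alone gave 0 genes by limma. MKI67, the Ki-67 proliferation antigen, was lower by 1.57 with tamoxifen and by 1.37 with the combination (limma adjusted p = 0.0289 and 0.0341). NPY was higher by 3.81 and 4.38 (limma adjusted p = 0.0364 and 0.0178).

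Mitosis genes had more calls than any other list examined. Of 18 tested members of the mitosis list, 12 were lower (66.7%, beside 2.05% of all genes), 0 were higher and 6 did not pass. For 8 members, all tamoxifen-arm arrays lay below all estradiol arrays, which held for 2.31% of all genes. The median difference over the list was -1.47, against -0.03 over all genes tested. The 12 were CENPF, MKI67, KIF4A, NCAPG, KIF23, ZWINT, CDK1, CCNB1, CCNB2, TPX2, TOP2A and CENPE, which cover the spindle, kinetochore, condensin and the mitotic kinase with its cyclins. AURKA, MAD2L1, AURKB, CCNA2, PTTG1 and DLGAP5 did not pass.

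MKI67, which marks cycling cells, stood at 7.42, 7.21, 6.23 and 7.37 in Estradiol 1 to 4. In the 8 tamoxifen-arm arrays it ran from 4.92 to 6.07 with a median of 5.62, and in the control arrays from 5.16 to 5.88. All 8 lay below the lowest estradiol array, Estradiol 3, and inside or near the control range. The difference was -1.47 (SE 0.24), a 2.78-fold lower level (limma adjusted p = 0.00809).

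CDK1, the kinase that starts mitosis, stood at 8.21, 7.62, 7.49 and 8.20 in the estradiol arrays and between 5.01 and 7.24, with a median of 6.19, in the tamoxifen arms. There was no overlap, although the tamoxifen arm was wide, at 6.04 ± 1.05 (SD, n = 4) against 6.09 ± 0.36 for the combination and 6.02 ± 0.39 for controls. The difference was -1.82 (SE 0.35; limma adjusted p = 0.0141). TOP2A, the topoisomerase that untangles replicated DNA, stood at 8.90, 8.92, 7.06 and 8.95 with estradiol and between 4.64 and 7.23 in the tamoxifen arms. Only 7 of the 8 lay below Estradiol 3, the low array of its arm, and the fit gave -2.30 (SE 0.56; limma adjusted p = 0.0427). TOP2A missed the threshold in 11 of the 16 fits that left out 1 array, with a limma adjusted p of up to 0.165.

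Further mitosis genes among the largest decreases included ZWINT of the kinetochore at -2.07, KIF23, a kinesin of the cleavage furrow, at -1.59, CENPF of the kinetochore at -1.53 and the condensin subunit NCAPG at -1.51. FOXM1, the transcription factor of mitotic genes, fell by 1.57 and the spindle protein CKAP2 by 1.57. CENPF passed whichever array was left out (limma adjusted p up to 0.0389). MKI67, CDK1, ZWINT, KIF23 and NCAPG each missed the threshold in 1 fit only, the one without Estradiol 1, with limma adjusted p between 0.0514 and 0.0771. FOXM1 and CKAP2 missed it without Estradiol 1, 2 or 4, with limma adjusted p up to 0.112 and 0.0866.

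DNA replication genes were lower too. Of 17 tested members, 10 were lower (58.8%, beside 2.05% of all genes) and 0 higher, with a median difference of -0.79. They included the helicase subunits MCM2, MCM3, MCM4 and MCM5, the initiation factor MCM10, the helicase partners CDC45 and GINS2, the sliding clamp PCNA, thymidylate synthase TYMS and the histone chaperone subunit CHAF1A. MCM2 stood at 9.87, 9.64, 9.18 and 9.49 with estradiol and between 8.42 and 8.89, with a median of 8.67, in the tamoxifen arms. No tamoxifen-arm array reached Estradiol 3, and the control mean was 8.55 ± 0.15 (SD, n = 4). The difference was -0.87 (SE 0.12; limma adjusted p = 0.00458). CDC45 differed by -1.35, MCM10 by -1.43, MCM3 by -0.79 and PCNA by -0.56. MCM2 passed whichever array was left out (limma adjusted p up to 0.0305), whereas CDC45, MCM3 and PCNA missed the threshold in 1, 2 and 3 of the 16 fits (limma adjusted p up to 0.066, 0.0801 and 0.104). Those were the fits without Estradiol 1 for all of them, Estradiol 2 for MCM3 and PCNA, and Estradiol 4 for PCNA. MCM10 cleared the filter on dim genes through the estradiol arrays and was not tested without Estradiol 1, 2 or 4. It passed in the 13 fits that tested it (limma adjusted p up to 0.0348).

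The size of both groups rested on the estradiol arrays. The number of mitosis genes lower was 1 without Estradiol 1, 7 without Estradiol 2, 7 without Estradiol 4 and 15 without Estradiol 3. The median difference over the list stayed between -1.75 and -1.35 in those 4 fits. DNA replication genes lower numbered 1, 2 and 3 without Estradiol 1, 2 and 4, and 6 without Estradiol and Tamoxifen 3. Without Estradiol 4 and Tamoxifen 1 together, 9 mitosis and 6 DNA replication genes were lower. A mean score over the mitosis list was 1.26, 1.02, 0.31 and 1.27 in Estradiol 1 to 4 and ran from -0.82 to 0.14 in the tamoxifen arms, with controls at -0.61 to -0.43.

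**Figure D2:**
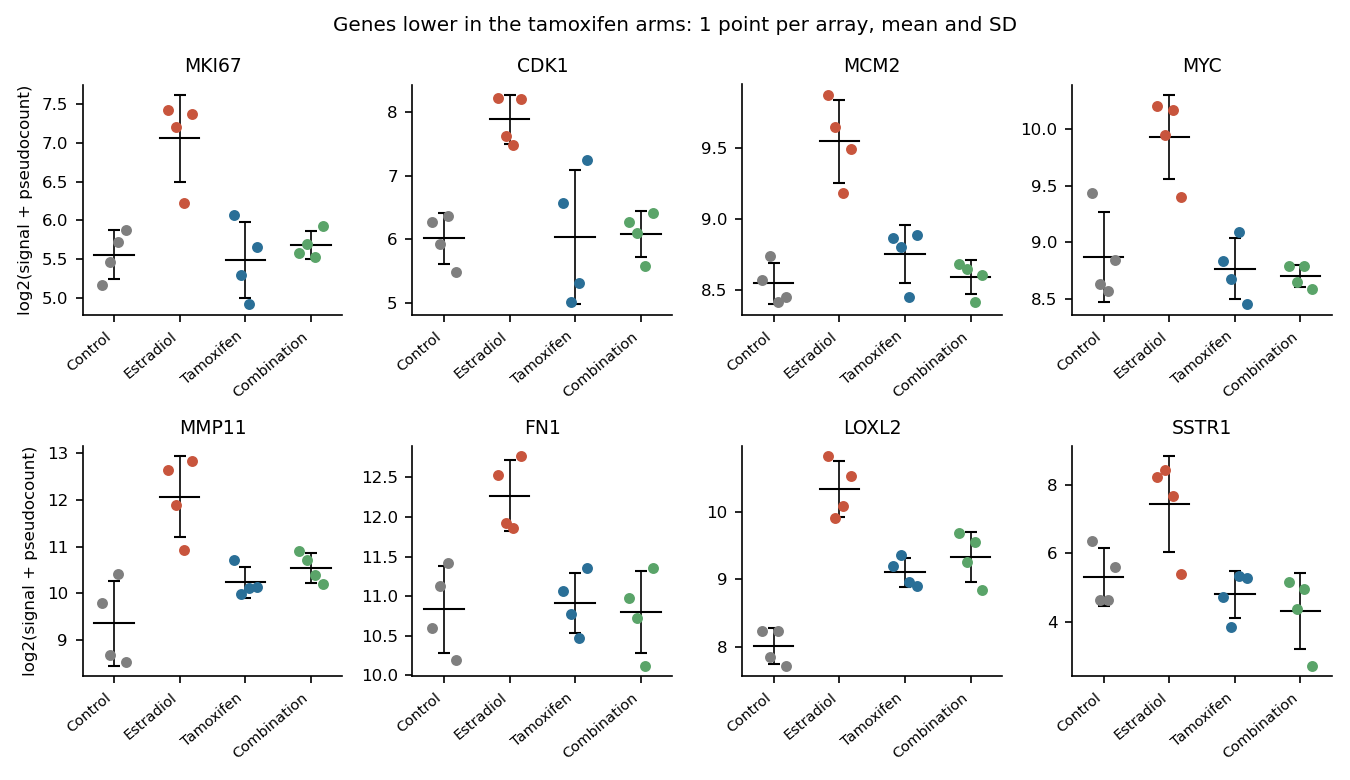
Points are single arrays by arm, the vertical axis is log2(signal + pseudocount), and the bars give the mean and SD of 4 arrays. All 8 genes were lower in the tamoxifen arms, and in each the 8 tamoxifen and combination points lie below the 4 estradiol points; for MKI67 the highest of the 8 is 6.07 and the lowest estradiol array is 6.23.

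Of 11 tested G1 cyclins and inhibitors, 1 was lower (9.09%, beside 2.05% of all genes). This was CCNE2, the cyclin E2 that drives entry into S phase (-0.96; limma adjusted p = 0.0132). It stood at 6.79, 6.79, 6.17 and 6.65 with estradiol and from 5.27 to 6.11 in the tamoxifen arms, without overlap, and missed the threshold without Estradiol 1 (limma adjusted p = 0.0731). Cyclin D1, CCND1, gave 0.35 and did not pass, and neither did the inhibitors CDKN1A and CDKN1B.

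Of 21 classical estrogen-induced genes tested, 2 were lower (9.52%, beside 2.05% of all genes), 0 were higher and 19 did not pass, with a median of 0.01. MYC, a transcription factor of growth and an early estrogen target, stood at 10.21, 9.95, 10.17 and 9.40 with estradiol and from 8.45 to 9.10 in the tamoxifen arms. The groups did not overlap and the control mean was 8.87 ± 0.39 (SD, n = 4), giving -1.20 (SE 0.18; limma adjusted p = 0.00516). MYC passed in all 16 fits that left out 1 array. OLFM1, a secreted olfactomedin-domain protein of endometrium, was lower by 1.08 (limma adjusted p = 0.0292), but missed the threshold without Estradiol 1, 2 or 4 or Tamoxifen 2, with limma adjusted p up to 0.0911.

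Several estrogen-responsive genes stood above the control arm in both estradiol and tamoxifen arrays. IGF1, the growth factor made by stroma under estrogen, was at 13.04, 13.17, 12.57 and 13.04 with estradiol and from 12.45 to 13.18 in the tamoxifen arms, with controls at 11.70 ± 0.28 (SD, n = 4). The groups overlapped, and the difference was -0.10 (SE 0.15; limma adjusted p = 0.786). IHH, a hedgehog ligand of the epithelium, averaged 7.73 ± 0.59 in controls, 10.49 ± 0.54 with tamoxifen and 10.69 ± 0.08 with the combination, and its pooled difference from estradiol was 0.59 (SE 0.26; limma adjusted p = 0.258). MYB, a transcription factor of proliferating cells and an estrogen target, gave 0.53 (limma adjusted p = 0.335). A p that misses the threshold does not show that the levels were alike.

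The steroid receptors did not pass. ESR1, estrogen receptor alpha, stood at 8.96, 9.30, 9.16 and 8.88 with estradiol and from 8.65 to 9.34 in the tamoxifen arms, an overlapping range with a difference of -0.12 (SE 0.18; limma adjusted p = 0.783). PGR, the progesterone receptor, stood at 10.46, 10.35, 10.58 and 10.81 with estradiol and from 9.48 to 10.38 in the tamoxifen arms, where 7 of 8 lay below the lowest estradiol array. Its difference was -0.51 (SE 0.19; limma adjusted p = 0.183). GREB1, a growth gene regulated by estrogen, gave -0.91 (limma adjusted p = 0.0654), and TFF3, a trefoil peptide of mucosa, gave 1.17 (limma adjusted p = 0.0593); neither passed. All 13 steroid receptors and cofactors were without a call by limma, and 2 of them had an unadjusted p under 0.05.

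Matrix genes formed another lower group. Of 25 tested extracellular matrix genes, 6 were lower (24%, beside 2.05% of all genes), 0 were higher and 19 did not pass, with a median of -0.32. The 6 were the lysyl oxidases LOX and LOXL2, which cross-link collagen, the prolyl hydroxylase P4HA2, fibronectin FN1, the adhesion protein TGFBI and the collagen COL5A2. COL1A1, the main fibrillar collagen, gave -0.68 and did not pass (limma adjusted p = 0.0919).

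LOXL2 stood at 10.82, 9.90, 10.09 and 10.53 with estradiol and from 8.85 to 9.68, with a median of 9.23, in the tamoxifen arms. The groups did not overlap, and controls were lower than both at 8.01 ± 0.26 (SD, n = 4). Its difference was -1.12 (SE 0.19; limma adjusted p = 0.00809), and it passed in all 16 fits that left out 1 array. FN1 stood at 12.53, 11.92, 11.86 and 12.76 with estradiol and from 10.12 to 11.36 in the tamoxifen arms, again without overlap, with controls at 10.83 ± 0.55. FN1 differed by -1.41 (SE 0.26; limma adjusted p = 0.0129) and missed the threshold without Estradiol 1 (limma adjusted p = 0.0708).

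TGFBI, a matrix protein induced by TGF-beta, differed by -1.87 with 7 of 8 arrays below the estradiol arm, and P4HA2 and COL5A2 by -0.52 and -0.45. These missed the threshold in 6, 9 and 10 of the 16 fits (limma adjusted p up to 0.129, 0.173 and 0.161). The count of lower matrix genes was 1, 2, 8 and 2 without Estradiol 1, 2, 3 and 4, it was 2, 2 and 3 without Tamoxifen 3, Estradiol and Tamoxifen 2 and Estradiol and Tamoxifen 3, and 3 without Estradiol 4 and Tamoxifen 1 together. In the stroma fibroblast list, 2 of 16 tested genes were lower (12.5%, beside 2.05% of all genes), with a median of -0.30. They were PCOLCE, the enhancer of procollagen C-proteinase, at -1.19 (SE 0.19; limma adjusted p = 0.00604), and the stromal metalloproteinase MMP11 at -1.68 (SE 0.36; limma adjusted p = 0.0267).

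MMP11 stood at 12.63, 11.89, 10.94 and 12.84 with estradiol, from 9.98 to 10.92 in the tamoxifen arms and at 9.36 ± 0.91 (SD, n = 4) in controls. Estradiol 3 lay only just above the highest of the 8. MMP11 missed the threshold without Estradiol 1, 2 or 4 or Estradiol and Tamoxifen 3, with limma adjusted p up to 0.129, whereas PCOLCE passed in all 16 fits. Summed signal of the 16 stromal genes was 64208 to 76921 in estradiol arrays, 45895 to 64243 in the tamoxifen arms and 41822 to 43487 in controls; its part in the matrix result was not tested.

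Among matrix proteases and inhibitors, 1 of 16 was higher (6.25%, beside 0.897% of all genes) and 2 were lower (12.5%, beside 2.05%). ADAMTS4, which cleaves the proteoglycan aggrecan, was lower by 0.94 (limma adjusted p = 0.0146), and MMP11 was the other. ADAMTS4 missed the threshold in 2 of 16 fits (limma adjusted p up to 0.0866, without Estradiol 1). ADAMTS19, a related protease outside the list, was lower by 1.64: it averaged 10.43 ± 0.33 (SD, n = 4) with estradiol and ran from 8.44 to 9.21 in the tamoxifen arms, without overlap. Its limma adjusted p was 0.00516, and it passed in all 16 fits. TFPI2, an inhibitor of serine proteases, was the higher one at 2.13 (SE 0.49; limma adjusted p = 0.0366), with 7 of 8 arrays above the estradiol arm. TFPI2 missed the threshold in 7 of 16 fits, including those without Estradiol 1 and Estradiol 4 (limma adjusted p up to 0.137).

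**Figure D3:**
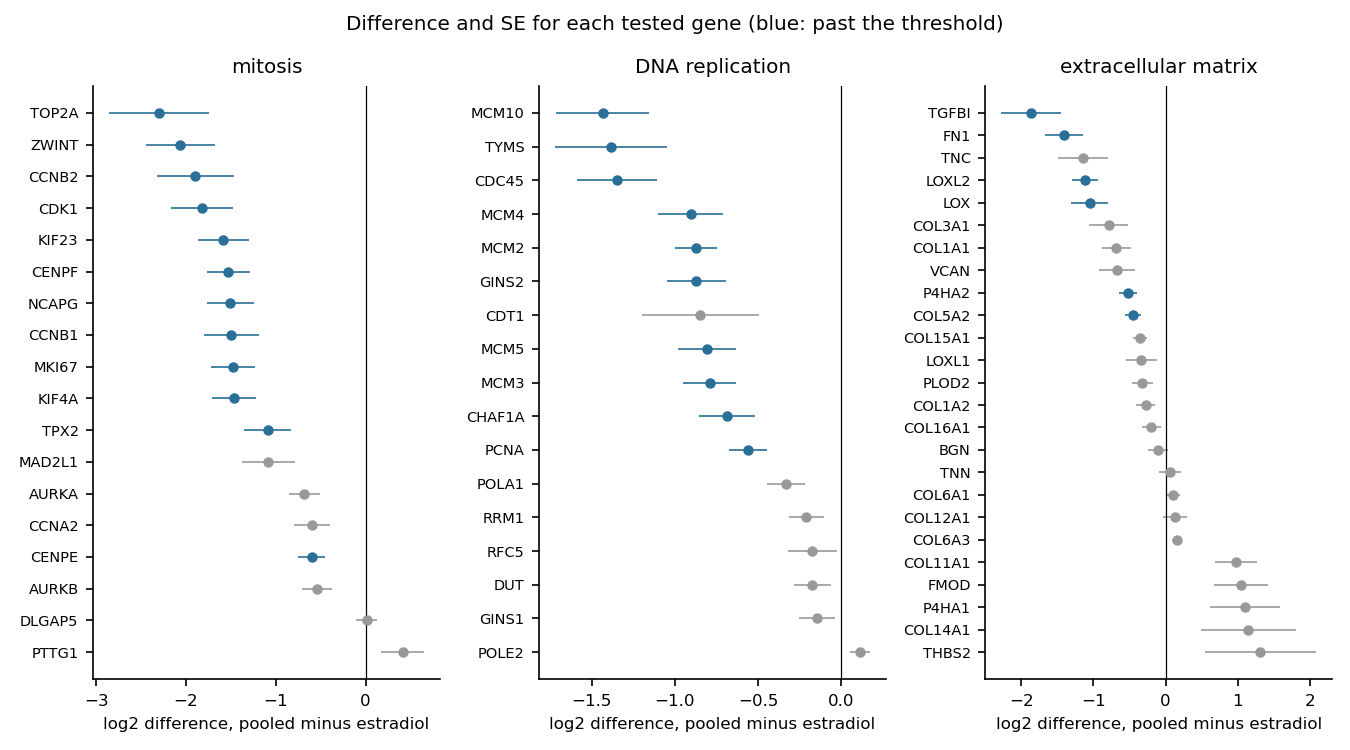
Every tested member of the mitosis, DNA replication and extracellular matrix lists, with the pooled difference from estradiol on the log2 scale and its SE as a bar. Blue marks the 12 of 18, 10 of 17 and 6 of 25 genes that passed, all of them to the left of 0; grey marks the rest, which in the matrix list lie on both sides of 0.

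The largest increase was in NPY, neuropeptide Y, a peptide of sympathetic nerves and other cells. NPY stood at 6.06, 7.08, 6.88 and 4.57 in Estradiol 1 to 4. It was at 9.21, 9.07, 11.48 and 10.06 in Tamoxifen 1 to 4 and at 10.85, 9.18, 11.19 and 10.88 in the combination arrays. All 8 lay above every estradiol array and above all 4 controls, which ran from 2.83 to 6.12. The difference was 4.09 (SE 0.66), or 17.0-fold (limma adjusted p = 0.00685), and it passed in all 16 fits.

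CXCL17, a chemokine of mucosal epithelium, stood at 5.65, 6.04, 5.46 and 4.84 with estradiol. In the tamoxifen arms it ran from 7.53 to 9.53 with a median of 7.84, and controls were at 5.14 ± 0.26 (SD, n = 4). Values in the groups were separate, and the combination mean of 8.63 ± 0.83 was the more scattered beside 7.75 ± 0.13 for tamoxifen. The difference was 2.69 (SE 0.29), or 6.45-fold (limma adjusted p = 0.00282), the smallest adjusted p among the genes named here.

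Of 11 tested mucous and secretory genes, CXCL17 was higher (9.09%, beside 0.897% of all genes) and DMBT1 lower (9.09%, beside 2.05%). The other 9 did not pass. The list median was 0.68, with 9 of the 11 above 0. LYZ, lysozyme, gave 1.40 and did not pass (limma adjusted p = 0.0916). DMBT1, a scavenger glycoprotein of mucosal surfaces, stood at 12.40, 11.28, 10.95 and 10.48 with estradiol and from 8.63 to 10.63 in the tamoxifen arms, with controls far lower at 6.58 ± 0.50 (SD, n = 4). It was lower by 1.64 (limma adjusted p = 0.0416), but missed the threshold in 8 of 16 fits, with limma adjusted p up to 0.183 without Estradiol 1.

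In epithelium of the stratified type, 1 of 9 tested genes passed (11.1%, beside 2.05% of all genes called lower). This was DMKN, dermokine, a secreted protein of differentiating keratinocytes, at 10.60, 10.50, 10.24 and 11.75 with estradiol and from 7.71 to 9.01 in the tamoxifen arms. All 8 lay below the estradiol arm and controls stood at 7.34 ± 1.02 (SD, n = 4). DMKN was lower by 2.40 (SE 0.40; limma adjusted p = 0.00844) and passed in all 16 fits. GJB6, a gap junction connexin, and LGALS7B, a galectin of stratified epithelium, gave 2.40 and 1.92 in the other direction without passing (limma adjusted p = 0.0665 and 0.0681).

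Neuropeptide and neuronal-type genes moved in both directions. Of 10 tested, NPY and GABRE were higher (20%, beside 0.897% of all genes) and SSTR1 lower (10%, beside 2.05%). SSTR1, a somatostatin receptor that inhibits secretion and growth, stood at 8.23, 8.43, 7.66 and 5.40 with estradiol and from 2.72 to 5.34 in the tamoxifen arms. All 8 were below the estradiol arm, but Estradiol 4 lay only just above them, and the control mean was 5.31 ± 0.83 (SD, n = 4). The difference was -2.87 (SE 0.57), a 7.33-fold lower level (limma adjusted p = 0.0174), but SSTR1 cleared the filter on dim genes through the estradiol arrays, and it was not tested in the fits without Estradiol 1, 2 or 3. GABRE, a subunit of the GABA-A receptor, was higher by 1.06 (limma adjusted p = 0.0405), and missed the threshold in 10 of 16 fits with limma adjusted p up to 0.176.

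The 15 highest changes without overlap between the groups also held MRAP2, an accessory protein of melanocortin receptors, at 2.61, IGSF21, a synaptic adhesion protein, at 2.22, and the uncharacterised C11H12orf56 at 1.95, with a limma adjusted p of 0.0578 without Estradiol 1. MRAP2 and IGSF21 missed the threshold in 10 and 13 of 16 fits (limma adjusted p up to 0.15 and 0.127), and IGSF21 was at 5.77 in Estradiol 4 against 8.02 to 8.39 in the rest of that arm. TAGAP, a signalling protein of activated T cells, stood at 8.11, 7.38, 8.16 and 7.67 with estradiol and from 9.01 to 10.53 in the tamoxifen arms. It was higher by 1.75 (SE 0.26; limma adjusted p = 0.00532) with no overlap, controls lay at 9.02 ± 0.80 (SD, n = 4), and it passed in all 16 fits.

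**Figure D4:**
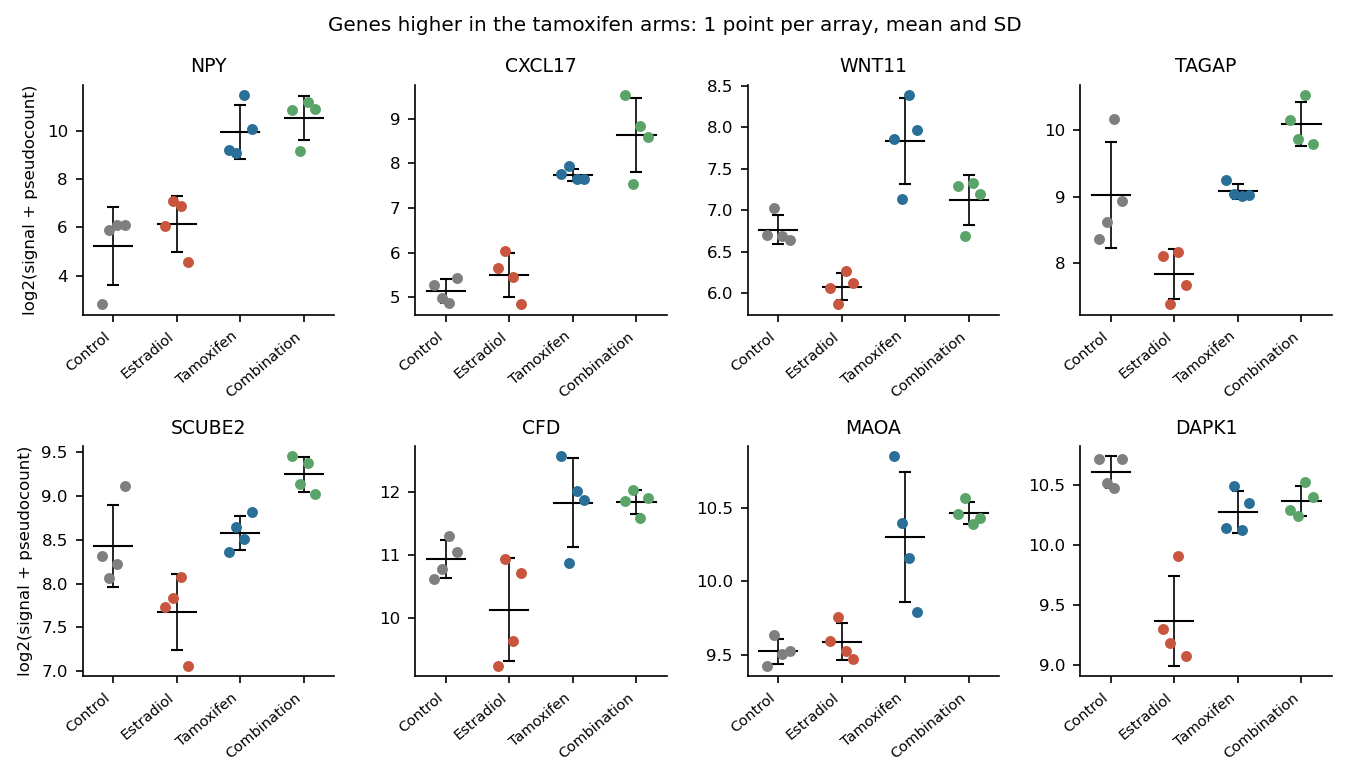
Points are single arrays by arm, the vertical axis is log2(signal + pseudocount), and the bars give the mean and SD of 4 arrays, for 8 genes that were higher in the tamoxifen arms. NPY and CXCL17 are low in both control and estradiol arrays, whereas DAPK1 is lowest with estradiol, at 9.08 to 9.91 against control arrays at 10.47 to 10.72; CFD overlaps at 1 tamoxifen array.

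SCUBE2, a secreted protein that helps release hedgehog ligands, was higher by 1.23 (limma adjusted p = 0.0066), and the guanine nucleotide exchange factor NGEF by 1.36 (limma adjusted p = 0.00699). DAPK1, a kinase that promotes cell death, stood at 9.30, 9.18, 9.91 and 9.08 with estradiol and from 10.12 to 10.52 in the tamoxifen arms. All 8 lay above the estradiol arm, and it was higher by 0.95 (SE 0.13; limma adjusted p = 0.00458). SCUBE2, NGEF and DAPK1 each passed in all 16 fits.

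Among these 15 were also the N-acetylgalactosaminyltransferase GALNT16 at 1.25, the I-branching enzyme GCNT2 at 1.17 and the sialyltransferase ST3GAL5, which makes the ganglioside GM3, at 0.97. ST3GAL5 passed in all 16 fits (limma adjusted p = 0.00717 with all arrays), GCNT2 missed it without Estradiol 1 (limma adjusted p = 0.0514) and GALNT16 in 7 fits (limma adjusted p up to 0.0856). NRIP3 was higher by 1.15 (limma adjusted p = 0.0157) and missed the threshold in 2 of 16 fits (limma adjusted p up to 0.0558, without Estradiol 1). ITPK1, an inositol phosphate kinase, was higher by 1.12 on its brightest probe set, but the next probe set of that gene gave -0.02, and it missed the threshold without Estradiol 1 (limma adjusted p = 0.0664). The 15 lowest also held ISLR2, a neuronal surface protein, at -1.76, which missed the threshold in 8 fits (limma adjusted p up to 0.11), and GFRA2, a receptor for neurturin, at -1.50 (SE 0.21; limma adjusted p = 0.00458). GFRA2 stood at 8.49, 8.53, 8.31 and 8.45 with estradiol and from 6.34 to 7.66 in the tamoxifen arms, so that the groups were well separated, and it passed in all 16 fits.

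WNT genes were split. Of 23 tested, 2 were higher (8.70%, beside 0.897% of all genes) and 1 was lower (4.35%, beside 2.05%). WNT11, a non-canonical ligand, stood at 6.06, 5.87, 6.27 and 6.13 with estradiol and from 6.69 to 8.39 in the tamoxifen arms. There was no overlap, the control mean of 6.77 ± 0.18 (SD, n = 4) lay between, and the difference was 1.40 (SE 0.19; limma adjusted p = 0.00458). WNT5A, a non-canonical ligand of uterine stroma, was lower by 0.84 (limma adjusted p = 0.0433) and the receptor FZD4 higher by 0.54 (limma adjusted p = 0.0493). WNT11 passed in all 16 fits, while WNT5A missed the threshold in 11 and FZD4 in 14, with limma adjusted p up to 0.176 and 0.161 without Estradiol 1.

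Of 17 tested genes of Mullerian development, 3 were lower (17.6%, beside 2.05% of all genes) and 0 higher, with a median of -0.35. These were WNT5A and the transcription factors TBX3 and HAND2, the latter a mediator of progesterone action in uterine stroma. TBX3 stood at 11.91, 11.73, 11.63 and 12.12 with estradiol and from 10.89 to 11.60 in the tamoxifen arms, without overlap, and was lower by 0.63 (limma adjusted p = 0.0132). HAND2 was also lower by 0.63 (limma adjusted p = 0.031). It was also the 1 of 8 tested hedgehog pathway genes called (12.5%, beside 2.05% of all genes called lower). TBX3 missed the threshold without Estradiol 1 (limma adjusted p = 0.0701) and HAND2 in 6 of 16 fits (limma adjusted p up to 0.151). In the list of BMP, TGF-beta and activin genes, 1 of 21 was higher (4.76%, beside 0.897% of all genes) and 0 were lower. This was FST, follistatin, which binds activin, at 1.10 (limma adjusted p = 0.0317). FST missed the threshold in 6 fits (limma adjusted p up to 0.15).

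Progesterone-induced and decidual genes were mixed, with 1 of 15 higher (6.67%, beside 0.897% of all genes) and 2 lower (13.3%, beside 2.05%). MAOA, monoamine oxidase A, stood at 9.59, 9.76, 9.52 and 9.47 with estradiol and from 9.79 to 10.85 in the tamoxifen arms. No values overlapped, although the lowest tamoxifen array was close to Estradiol 2, and the combination was tight at 10.46 ± 0.07 (SD, n = 4). MAOA was higher by 0.79 (SE 0.14; limma adjusted p = 0.0103), and reached a limma adjusted p of 0.0504 without Estradiol 1. The lower genes were HAND2 and IL15, the cytokine that sustains uterine NK cells, at -0.99 (SE 0.19; limma adjusted p = 0.014).

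IL15 stood at 8.29, 8.85, 8.76 and 8.59 with estradiol and from 6.86 to 8.40 in the tamoxifen arms, where 7 of 8 lay below the estradiol arm, and at 9.03 ± 0.27 (SD, n = 4) in controls. It missed the threshold without Estradiol 2 (limma adjusted p = 0.0511). GZMB, granzyme B of cytotoxic lymphocytes, ran from 9.42 (Estradiol 3) to 10.74 (Estradiol 2) with estradiol and from 7.21 to 9.38 in the tamoxifen arms. The groups did not overlap, and the difference was -1.54 (SE 0.37; limma adjusted p = 0.0424). GZMB missed the threshold in 11 of 16 fits, with limma adjusted p up to 0.161.

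GZMB was the 1 gene called among 12 tested T and NK cell markers (8.33%, beside 2.05% of all genes called lower). Of the 12, 11 had a difference below 0, with a median of -0.38. The summed signal of these markers was 7943 to 11766 in estradiol arrays, 5866 to 9632 in the tamoxifen arms and 9332 to 12877 in controls, and its part in the GZMB and IL15 results was not tested. Of 13 tested cytokines and chemokines, IL1A and IL15 were lower (15.4%, beside 2.05% of all genes). IL1A, interleukin-1 alpha, ran from 6.54 (Estradiol 3) to 8.27 (Estradiol 1) with estradiol and from 4.25 to 5.64 in the tamoxifen arms, without overlap and with controls at 4.65 ± 0.51 (SD, n = 4). It was lower by 2.03 (SE 0.34; limma adjusted p = 0.00809). IL1A cleared the filter on dim genes through the estradiol arrays and was not tested in the fit without Estradiol 1. None of the 14 macrophage and monocyte genes passed limma's adjusted threshold, and 2 had an unadjusted p under 0.05.

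CFD, complement factor D, was the 1 of 8 complement genes that passed (12.5%, beside 0.897% of all genes called higher). It stood at 9.24, 10.93, 9.63 and 10.72 with estradiol and from 10.87 to 12.56 in the tamoxifen arms. Estradiol 2 overlapped with 1 of the 8. CFD was higher by 1.71 (SE 0.31; limma adjusted p = 0.0124), and missed the threshold without Estradiol 1 (limma adjusted p = 0.0664).

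The lists of stress, survival and metabolism held 1 or 2 calls each, beside 2.95% of all genes called. Of 15 immediate early genes, DUSP1, a phosphatase that switches off MAP kinases, was higher by 0.79 (limma adjusted p = 0.0118) and MYC was lower. DUSP1 stood at 10.29, 10.69, 10.50 and 10.32 with estradiol, from 10.81 to 11.50 in the tamoxifen arms and at 11.65 ± 0.25 (SD, n = 4) in controls, so the estradiol arrays were the lowest, and its limma adjusted p was 0.0664 without Estradiol 1. Of 18 tested FOXO targets and muscle atrophy genes, TXNIP, the thioredoxin inhibitor, was higher by 0.35 and FBXO32, a ubiquitin ligase subunit, by 1.83 (limma adjusted p = 0.0397 and 0.048), with a list median of 0.37. FBXO32 missed the threshold in 14 of the 16 fits and TXNIP in 11, with limma adjusted p up to 0.145 and 0.139.

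PMAIP1, which encodes the pro-apoptotic protein NOXA, was the 1 of 13 apoptosis regulators called, at -1.47 (limma adjusted p = 0.0277). PDIA6, a protein disulfide isomerase of the endoplasmic reticulum, was the 1 of 13 unfolded protein response genes, at -0.45 (limma adjusted p = 0.0193). TM7SF2, a sterol reductase, was higher by 1.19 (limma adjusted p = 0.0315), while the 16 cholesterol synthesis genes had a median of -0.24 and the other 15 did not pass. CYP1B1, which hydroxylates estrogens, was the 1 of 4 tested steroid metabolism genes called, at -1.54 (SE 0.36; limma adjusted p = 0.037), with 7 of 8 arrays below the estradiol arm. PMAIP1, PDIA6, TM7SF2 and CYP1B1 missed the threshold in 4, 2, 7 and 8 of the 16 fits that left out 1 array. Their limma adjusted p was highest without Estradiol 1, at 0.129, 0.103, 0.139 and 0.161.

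The remaining 22 lists had no call by limma. They held 260 tested genes, of which 53 had an unadjusted p under 0.05, beside 2110 of 10706 (19.7%) over all genes. Among them were the IGF axis (15 genes), the EGF receptor family and ligands (11), notch (12), retinoid genes (17), antigen presentation (11), type I interferon (14), mitochondrial respiration (15) and cytosolic ribosome (11). The 13 epithelial markers had a median of -0.02 and the 9 ciliated cell markers 0.59, with a wide spread of the ciliated score in both groups, from -1.02 to 1.04 with estradiol and from -0.32 to 1.59 in the tamoxifen arms.

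The median of the smooth muscle list changed sign with 1 array. Of 16 tested, 15 had a difference above 0 and the median was 0.66, and none passed. Without Estradiol 4, the median was -0.13. Endothelial genes had a median of 0.38, with 16 of 18 above 0 and none passing, and a median of 0.26 without Estradiol 4. By limma, 1 smooth muscle and 6 endothelial genes had an unadjusted p under 0.05.

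**Figure D5:**
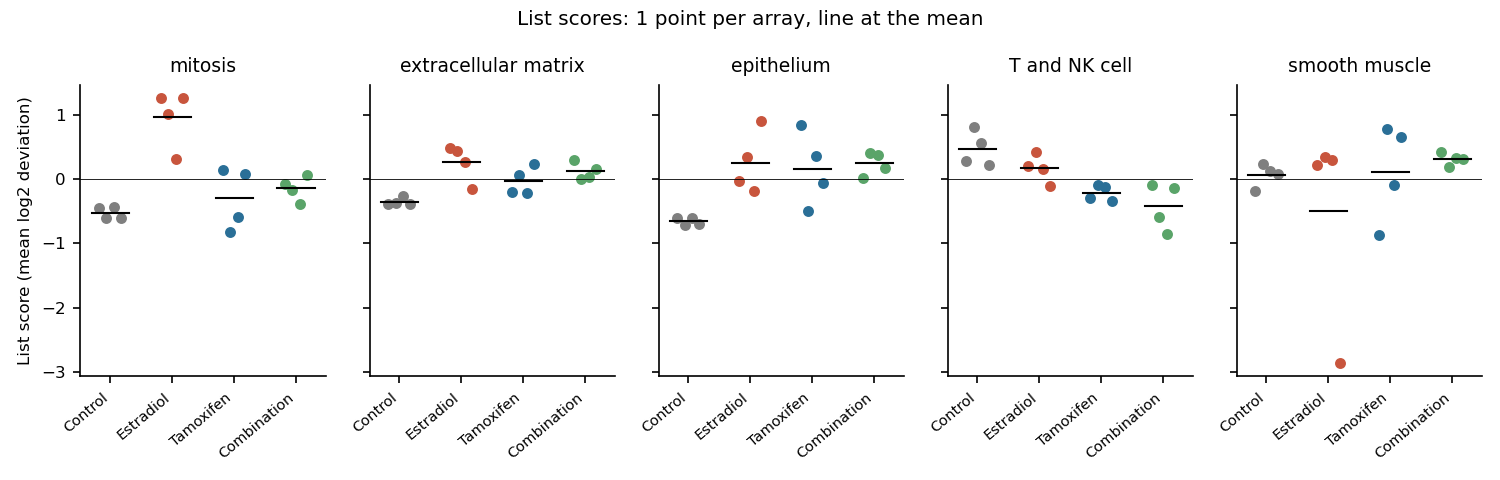
Mean log2 deviation over the tested members of 5 lists, 1 point per array with a line at the mean of each arm. Mitosis scores separate the estradiol arm, with a lowest value of 0.31, from the tamoxifen arms, with a highest value of 0.14; extracellular matrix, epithelium and T and NK cell scores overlap, and in smooth muscle Estradiol 4 stands alone at -2.86.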

How the data were processed

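Endometrial RNA from a study of 16 macaques was hybridised to 16 Affymetrix rhesus arrays, and 1 array an animal was assumed. The deposited values are signal intensity on a linear scale; they were made with MAS5, GCOS and Affymetrix Expression Console, per the submitters' processing notes, to a scaling target not given in the sources used here. The authors' intensity values covered 52865 probe sets, and 99 controls were left out. Signals ran from 0.0242 to 23401. Here log2(signal + 4.80) was taken, the pseudocount being the 10th percentile of all values, which understates the change of dim genes. The lowest 40% of probe sets by mean were left out, leaving 31660, of which 18312 had 1 gene symbol in GEO's platform annotation, which can be old. Over the series, 24956 non-control probe sets had 1 symbol, 361 several and 27449 none.

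limma 3.58.1 in R 4.3.3 fitted a mean for each of the 4 arms over 16 arrays (12 residual degrees of freedom, eBayes with trend). The pooled comparison is the mean of the tamoxifen and combination arms minus estradiol, so controls add to the spread and not to the difference. Controls also entered the pseudocount, the filter and the choice of the brightest probe set. Without the controls, the pooled comparison gave 241 genes. Benjamini-Hochberg adjustment ran over all 31660 probe sets, with a threshold of 0.05. The number of arrays, 4 an arm, limits the precision. The fit was tested on simulated data.

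Named genes were the 15 highest and 15 lowest changes among called genes whose arrays did not overlap, up to 5 members of each of 46 gene lists with the smallest p, the 5 smallest p between the pooled arms, and 9 fixed genes. A count or group sentence also names list members outside this rule, chosen after their values were seen. Lists held 927 symbols, of which 680 were annotated and 574 tested. A list score is the mean over its tested members of each log2 level minus that gene's mean over arrays. The comparison and the lists were chosen with earlier results of these data known. Alternatives were other pseudocounts, filters, scaling, variance models and arrays, each array left out in turn, a replicate block, and adjustment over named probe sets only.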

Additional observations from a re-analysis of the deposited data

Results flagged for a closer look

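In the estradiol, tamoxifen and combination arms, each of 4 arrays, gene levels and the scores of some lists were checked for 1 array standing apart. The control arm was not checked. The genes were those followed individually through the fits that left out 1 array. An array was picked if its gap to the nearest other exceeded Dixon's critical value for 4. This picked 17 of 330 groups (5.15%), and chance picks about 1 in 20, so the number of such values is near what chance gives.

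In the estradiol arm, Estradiol 3 was the low array for TOP2A (7.06), KIF4A (5.99), MCM10 (5.45) and E2F2 (6.32), all genes of cell division. Estradiol 4 was low for IGSF21 (5.77) and for the smooth muscle score (-2.86), and Estradiol 1 was high for SEC24D (10.22).

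In the combination arm, Estradiol and Tamoxifen 2 was low for NPY (9.18) and MRAP2 (6.43) and high for ADAMTS19 (9.21). Estradiol and Tamoxifen 3 was low for CENPF (7.03) and OLFM1 (7.73), and Estradiol and Tamoxifen 1 was high for COL5A2 (11.67). In the tamoxifen arm, Tamoxifen 1 was apart for TAGAP (9.25), PGR (10.38) and TXNIP (13.10), and Tamoxifen 4 for E2F2 (5.82).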

How the results depend on the processing

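The 316 genes of the pooled comparison came to 231 to 340 under the other settings that kept all arrays or all 12 of the comparison, and the replicate block gave 262; same-numbered arrays of different arms did not deviate together (median r 0.0051 over 24 pairs), so the numbers were not taken as pairs. Leaving out 1 array gave 42 to 627 genes (16 to 208 higher and 26 to 419 lower) and 103 to 1530 probe sets, against 761. Mitosis genes lower ran from 1 to 15, DNA replication genes from 1 to 10, and matrix genes from 1 to 8; without Estradiol 4 and Tamoxifen 1 together the last pair came to 6 and 3. For tamoxifen against estradiol (76 genes, 180 probe sets), the 12 arrays without controls gave 20 and 46, and leaving out 1 array gave 0 to 279 and 0 to 618. For the combination against estradiol (142 and 385), those 12 arrays gave 69 and 197, no filter gave 82 and 221, and leaving out 1 array gave 19 to 461 and 47 to 1136. For the combination against tamoxifen, leaving out 1 array gave 0 to 1 probe sets and 0 to 0 genes. PI16, not called at -0.14, ran from -0.36 without Estradiol 4 and reversed to 0.14 without Estradiol 3 and 0.04 without Estradiol and Tamoxifen 1. Fewer arrays leave fewer degrees of freedom; beyond that, the cause was not tested. None of the 87 called genes followed individually reversed in any setting. With the mean over each gene's probe sets, 4 of the 87 missed the threshold (limma adjusted p up to 0.127).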

Other observations

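Genes described here lie outside the lists and the 15 extremes, or inside neither by rule, and were chosen after their values were seen, so their p-values are a description. VCAM1, an adhesion molecule for leukocytes, had the clearest difference among them. It stood at 9.85, 9.16, 9.68 and 9.74 with estradiol, from 7.81 to 9.06 in the tamoxifen arms and at 8.68 ± 0.13 (SD, n = 4) in controls. The groups did not overlap, the tamoxifen-arm median of 8.03 lay below the control mean, and the difference was -1.41 (SE 0.18; limma adjusted p = 0.00346). H19, an imprinted noncoding RNA, was lower by 1.01, and RASGRP1, an activator of Ras in lymphocytes, by 1.15. The laminin chains went opposite ways, with LAMA2 lower by 1.29 and LAMB2 higher by 0.56.

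Lower were also the cell cycle transcription factors E2F2 (-1.09) and MYBL2 (-1.32), the kinesin KIF2C (-1.43), the ubiquitin ligase subunit SKP2 (-0.90) and the replication licensing inhibitor GMNN (-0.90). Also lower were the collagen chaperone FKBP10 (-0.63), the endoplasmic reticulum retrieval receptor KDELR3 (-0.79) and the coat protein SEC24D (-0.86). Higher were GPC3, a cell surface proteoglycan, by 1.87, the integrin ITGA8 by 1.54, the receptor ADGRG2 by 2.12, the heparan sulfate sulfotransferase HS3ST2 by 2.13 and the galactosyltransferase B4GALT1 by 0.68. GNG11, a G protein subunit, was higher by 0.74 and the exchange factor NET1 by 0.72. VCAM1, E2F2, GMNN, FKBP10, KDELR3, SEC24D, B4GALT1, RASGRP1, H19, GNG11 and NET1 passed limma's adjusted threshold in all 16 fits that left out 1 array. MYBL2, KIF2C, SKP2, LAMA2, LAMB2 and ADGRG2 missed it without Estradiol 1, HS3ST2 without Estradiol 4, ITGA8 without Estradiol 1 or 2, and GPC3 without Estradiol 1, 2 or 4.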
